A study of Homo sapiens with 6 samples.

Results

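Myc peaks without a canonical E-box at bidirectional promoters were examined in parental 231 and 231:TKO cells. A peak was a member when its summit lay within 1 kb of a divergent gene pair and the 6-bp palindrome CACGTG was absent within 50 bp of the summit. A divergent pair was 2 protein-coding genes on opposite strands whose transcription start sites (TSSs) pointed away from each other and were at most 1 kb apart. Of 62539 peaks in the 4 Myc libraries, 3243 were members. GENCODE basic transcripts gave 1292 such gene pairs, which merged into 1236 divergent promoters where their start-site intervals overlapped. The 17304 protein-coding genes outside these pairs, called one-way genes here, were the comparison class for promoters. One-way peaks, the comparison class for peaks, had their summit within 1 kb of a protein-coding start site but not of a divergent pair. They include peaks at alternative start sites of paired genes that lie away from the pair, and 22237 of them were E-box-free.

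MDA-MB-231 is a human triple-negative breast cancer cell line, and 231:TKO is its derivative in which TXNIP, the thioredoxin interacting protein, was knocked out by CRISPR-Cas9. The question was whether loss of TXNIP alters Myc occupancy. Chromatin immunoprecipitation sequencing (ChIP-seq) with the Myc antibody D3N8F was done in 2 libraries per cell line, and input chromatin of each line (2 samples) served as control. Both lines were grown in the same serum-containing medium without further treatment. Knockout clones were derived from single cells. How many clones entered these libraries is not given in the sources used here, so the knockout and the clone cannot be told apart. TXNIP itself was not checked, since a peak list of Myc does not measure it.

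In a bidirectional promoter, 2 genes are transcribed away from a shared stretch of DNA that is usually rich in CpG dinucleotides and often lacks a TATA box. Many such promoters serve genes of basic cell functions, such as translation, mitochondria and DNA repair. Myc binds DNA as a heterodimer with Max. The dimer prefers CACGTG, tolerates related hexamers, and is also found at open promoters that hold no E-box.

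The sequence at the summit is shown first for the promoters that the results below turn on. These are windows within 50 bp of the summit in TKO replicate 1, on the plus strand of GRCh37 (hg19), shown only as far as they lie outside annotated UTR exons and contain the summit. Capitals mark letters of any of the 11 motif sets described below, and CACGTG is in none of them. In the order printed, the windows lie at chr11:94226607-94226707 (intron), chr1:6614574-6614672 (intergenic), chr11:108093699-108093793 (intergenic), chr6:32821670-32821770 (intron) and chr4:57303248-57303348 (intron).
MRE11/ANKRD49: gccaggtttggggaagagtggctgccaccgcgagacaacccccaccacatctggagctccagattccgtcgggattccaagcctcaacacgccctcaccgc
NOL9/TAS1R1: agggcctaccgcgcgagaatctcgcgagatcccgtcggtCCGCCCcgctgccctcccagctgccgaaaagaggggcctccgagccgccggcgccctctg
NPAT/ATM: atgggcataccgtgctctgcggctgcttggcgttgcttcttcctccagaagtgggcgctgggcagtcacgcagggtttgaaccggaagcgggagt
TAP1/PSMB9: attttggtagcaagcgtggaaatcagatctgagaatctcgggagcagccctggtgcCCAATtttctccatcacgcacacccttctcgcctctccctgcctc
PPAT/PAICS: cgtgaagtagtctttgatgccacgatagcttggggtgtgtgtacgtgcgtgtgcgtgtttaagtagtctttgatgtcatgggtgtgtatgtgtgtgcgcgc

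A GC box was seen in the NOL9/TAS1R1 window and a CCAAT box in the TAP1/PSMB9 window. The other 3 windows held no letters of any of the 11 sets.

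Of the 14 windows chosen for display, 4 held a non-canonical E-box. This was any of the letters CACGCG or the letters CATGCG or the letters CACGAG or the letters CACATG, on either strand. These sites are shown with 12 bases to either side, plus strand, and the hexamer is in capitals. They lie at chr7:6048951-6048980, chr5:175815581-175815610, chr19:5680499-5680528 and chr7:99006407-99006436, and all of these summits were in annotated UTR exons.
PMS2/AIMP2: gttggcctttggCACGCGctaccccctttt
NOP16/HIGD2A: tgtctctcagacCTCGTGtaacaaactcct
MICOS13/HSD11B1L: gtcgctcggatcCACGCGcaaggacactcg
PDAP1/BUD31: cgttcgggaagaCGCGTGgccctgcctgcc

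The hexamer started 31 bp before the summit at PMS2/AIMP2 and 6 bp before it at PDAP1/BUD31. It started 38 bp after the summit at NOP16/HIGD2A and 12 bp after it at MICOS13/HSD11B1L.

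The peak lists held 3720 and 5719 peaks in parental replicates 1 and 2 and 27213 and 25887 in TKO replicates 1 and 2. Library depth, recovered from the lists with an assumed genome size, was 22.2 to 26.4 M reads in parental and 13 to 19.9 M reads in TKO libraries. Read extension lengths, taken as the shortest peak width of each list, were 140 and 151 bp in parental and 182 and 201 bp in TKO libraries. Counts of peaks move with the length of the lists. The main counts, the patterns over lists and the gene families are therefore also given for lists of equal length, each cut to its 3720 strongest peaks, and the classes of start-site distance are not.

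In every library E-box-free Myc peaks were found at a larger share of divergent promoters than of one-way genes. Parental replicate 1 had 310 member peaks at 279 of the 1236 divergent promoters (22.6%, 95% Clopper-Pearson interval 20.3 to 25%). Parental replicate 2 had 333 at 307 (24.8%, 22.5 to 27.3%). TKO replicate 1 had 1311 at 960 (77.7%, 75.2 to 80.0%), and TKO replicate 2 had 1289 at 960 as well. Over all 18540 promoters, divergent and one-way, the share with an E-box-free peak was 8.81% and 9.65% in the parental and 43.7% and 44.6% in the TKO libraries.

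**Figure D1:**
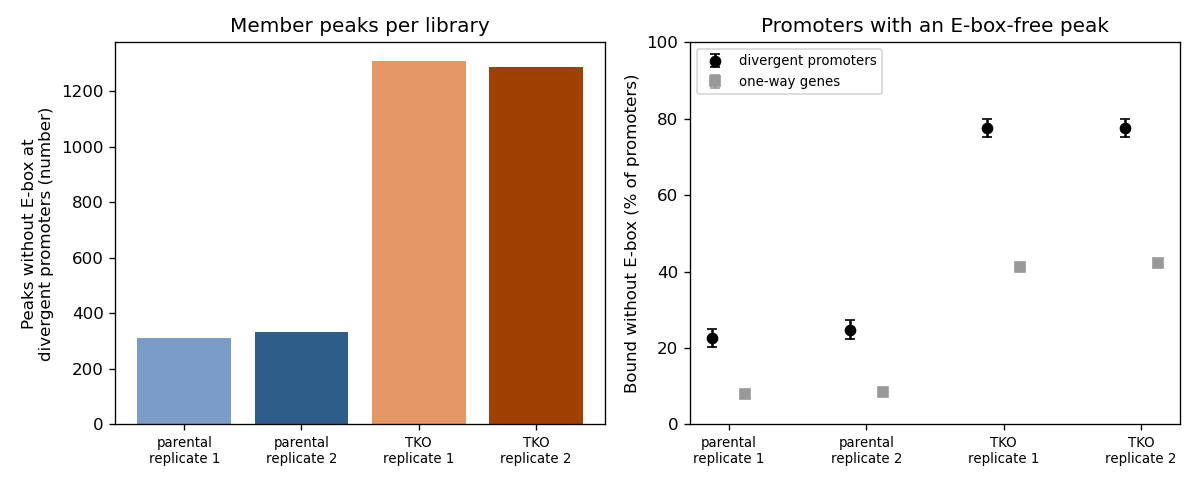
Left, number of E-box-free peaks at divergent promoters in each of the 4 Myc libraries. Right, share of 1236 divergent promoters (black circles) and of 17304 one-way genes (grey squares) with an E-box-free peak, with 95% Clopper-Pearson intervals, and the circles lie above the squares in every library.

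Of one-way genes, 7.83% and 8.57% were bound without an E-box in parental replicates 1 and 2, and 41.2% and 42.2% in TKO replicates 1 and 2. The divergent share was thus higher by 14.7 percentage points (95% Newcombe interval 12.5 to 17.2) in parental replicate 1. It was higher by 16.3 (13.9 to 18.8) in parental replicate 2, by 36.4 (33.9 to 38.8) in TKO replicate 1 and by 35.5 (32.9 to 37.8) in TKO replicate 2. All 4 libraries went the same way, and the exact two-sided sign-flip permutation test over them gave p = 0.125, the smallest that 4 libraries allow. These intervals cover counting error only. Within strata of GC content the mean difference was 21.2 points, against 25.7 without strata, and with lists of equal length it was 14.8. Expression of the genes was not adjusted for. In some of the gene families below the divergent share was not the higher one.

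Member peaks were more numerous in 231:TKO cells, with 1300 ± 15.6 (SD, n = 2) against 322 ± 16.3 (SD, n = 2) in parental 231 cells, a ratio of 4.04. Bound divergent promoters numbered 960 ± 0 against 293 ± 19.8 (SD, n = 2), a ratio of 3.28. The groups did not overlap, and the exact two-sided permutation test gave p = 0.333 for both, the smallest that 2 libraries against 2 allow. When each list was cut to its 3720 strongest peaks by the authors' −log10 p-value, the ratios were 1.18 and 1.26. Members then numbered 310 and 229 in parental replicates 1 and 2 and 321 and 314 in TKO replicates 1 and 2. Bound promoters numbered 279 and 217 against 316 and 309. Members made up 8.33% and 5.82% of all peaks in the full parental lists and 4.82% and 4.98% in the full TKO lists.

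The ratio was higher for one-way peaks. E-box-free one-way peaks numbered 1430 and 1577 in the parental and 9639 and 9591 in the TKO libraries, a ratio of 6.40, or 1.28 with lists of equal length. Divergent promoters therefore held a smaller part of the E-box-free promoter peaks in TKO libraries. That part was 17.8% (16 to 19.7%) and 17.4% (15.8 to 19.2%) in parental replicates 1 and 2, and 12% (11.4 to 12.6%) and 11.8% (11.2 to 12.5%) in TKO replicates 1 and 2. The difference of the means was −5.72 points (exact permutation p = 0.333, n = 2 per line), and −1.19 points with lists of equal length. The divergent share of bound promoters was 2.88 and 2.90 times the one-way share in the parental libraries, and 1.88 and 1.84 times in the TKO libraries. In points the divergent share exceeded the one-way share by 15.5 on average in parental and by 35.9 in TKO libraries. A share cannot grow past all promoters, which caps its ratio lower where the parental share is higher. This was not adjusted for.

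A member peak in the TKO lists alone was the most frequent pattern over the 4 lists. Of the 1236, 1038 had a member peak in at least 1 list, and 198 in none. Of these 198, 30 had peaks with an E-box only and 168 had no peak. A member peak was present in all 4 lists at 204 promoters (16.5%), in both TKO lists and 1 parental list at 131, and in both TKO lists and no parental list at 559 (45.2%). Another 108 had one in a single TKO list only. The reverse was rare, with a parental member and no TKO member at 12 promoters, and at only 1 of these had the TKO lists no peak of any kind. No divergent promoter had a member peak in both parental lists and no peak of any kind in the TKO lists.

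These patterns depended on the length of the lists. With lists of equal length, 464 divergent promoters had a member in at least 1 list. All 4 lists had one at 133 promoters, both TKO lists and no parental list at 40 (3.24%), and parental lists without a TKO member at 73 (5.91%), of which 18 were in both parental lists.

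Among promoters bound in both TKO lists, the divergent ones were more often bound in both parental lists. This was so for 204 of 894 divergent promoters (22.8%, 20.1 to 25.7%) and for 862 of 6289 one-way genes (13.7%, 12.9 to 14.6%). The difference was 9.11 points (95% Newcombe interval 6.34 to 12.1). Promoters are not replicates, so this interval describes these 4 lists.

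Replicate lists shared member peaks more often than one-way peaks. A peak of the replicate overlapped 73.9% and 72.4% of members in parental replicates 1 and 2 and 84.7% and 86.2% in TKO replicates 1 and 2. For one-way E-box-free peaks the shares were 67.8%, 63.0%, 80.0% and 80.5%. The difference was between 4.70 and 9.34 points, and all 4 Newcombe intervals lay above 0. Members were also the wider peaks, as given below, and several could lie at 1 promoter. Neither was adjusted for, and the intervals cover counting error only.

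The strongest E-box-free binding common to all lists was described for 8 promoters, ranked by the mean percentile of the authors' fold enrichment within each list. XNDC1N/RNF121 on chromosome 11 was first, with a TKO replicate 1 peak at chr11:71638989-71640405 and start sites 378 bp apart. RNF121 encodes a ubiquitin ligase of the secretory pathway. Its summit reads, as RPM (reads divided by the recovered depth in M reads), were 4.31 and 4.37 in parental replicates 1 and 2 and 9.73 and 10.5 in TKO replicates 1 and 2. The 2 TKO values were above both parental values, and the ratio of means was 2.33. All 4 summits were in coding sequence, 93 to 131 bp inside the minus-strand gene.

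PMS2/AIMP2 followed, with start sites 133 bp apart and a TKO replicate 1 peak at chr7:6048371-6049476. PMS2 acts in DNA mismatch repair, and AIMP2 is a scaffold of the multi-tRNA synthetase complex. Summit RPM was 3.14 and 3.25 in parental and 7.77 and 8.21 in TKO libraries. The groups did not overlap, with a ratio of means of 2.50, and all summits were 102 to 134 bp inside AIMP2.

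TRIP12/FBXO36 came next, at chr2:230786706-230787767 in TKO replicate 1. TRIP12 is a ubiquitin ligase and FBXO36 an F-box protein. Summit RPM was 2.27 and 1.80 in parental and 5.56 and 4.76 in TKO libraries, again without overlap, with a ratio of 2.53. The authors' fold of this peak, 40.5 in TKO replicate 1 and 29.1 in TKO replicate 2, was the highest of the 8 in both TKO lists.

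NOP16/HIGD2A followed, at chr5:175815047-175816630 in TKO replicate 1. NOP16 is a nucleolar protein of ribosome biogenesis, and HIGD2A assists assembly of respiratory complex IV. Summit RPM was 3.75 and 3.20 in parental and 7.82 and 8.21 in TKO libraries. Here the summits lay on both sides of the minus-strand start site. They were 3 and 18 bp outside NOP16 in the parental libraries and 37 and 44 bp inside it in the TKO libraries.

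The other 4 were NCBP2/NCBP2AS2 (NCBP2 is part of the nuclear cap-binding complex), RPL12/LRSAM1 (RPL12 is a large-subunit ribosomal protein), PPP1R10/MRPS18B (MRPS18B is a mitochondrial ribosomal protein) and ANAPC10/ABCE1 (a subunit of the anaphase-promoting complex and a ribosome recycling factor). Their TKO to parental ratios of mean summit RPM were between 2.01 at PPP1R10/MRPS18B and 2.71 at NCBP2/NCBP2AS2. PPP1R10/MRPS18B had the highest RPM of the 8 in every library, 5.34 and 6.13 in parental and 11.3 and 11.7 in TKO libraries. It was also the only one of the 8 whose summits all lay between the start sites, which are 597 bp apart.

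At 545 promoters both TKO lists had a member and neither parental list had a peak of any kind within 1 kb of the pair. The 8 with the highest mean percentile in the TKO lists were named. MRE11/ANKRD49 led them, with 2.86 and 3.53 RPM in TKO replicates 1 and 2 at percentiles 98 and 97.4. MRE11 is a nuclease of DNA double-strand break repair. NOL9/TAS1R1 followed with 1.85 and 2.38 RPM. NOL9 is a polynucleotide kinase of rRNA processing, and TAS1R1 is a taste receptor subunit. Next came MICOS13/HSD11B1L, at 3.26 and 4.37 RPM, where MICOS13 belongs to the complex that shapes mitochondrial cristae and the merged promoter also takes in RPL36.

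PDAP1/BUD31 had the highest RPM of these 8 in both TKO libraries, 3.76 and 4.53, and BUD31 is a spliceosome protein. The other 4 were CIAO2B/CES2 (cytosolic iron-sulfur cluster assembly and a carboxylesterase), ENSG00000287856/TSNAX (TSNAX is the partner of translin), ELL3/SERF2 (ELL3 is an elongation factor of RNA polymerase II) and AC110771.1/CYP4V2 (CYP4V2 is a fatty acid hydroxylase). Their RPM ranged from 1.55 to 2.91 in TKO replicate 1 and from 2.30 to 3.60 in TKO replicate 2. At MRE11/ANKRD49 the summits of the TKO libraries lay apart, 383 and 182 bp inside MRE11, so that the window shown above is that of TKO replicate 1 only.

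**Figure D2:**
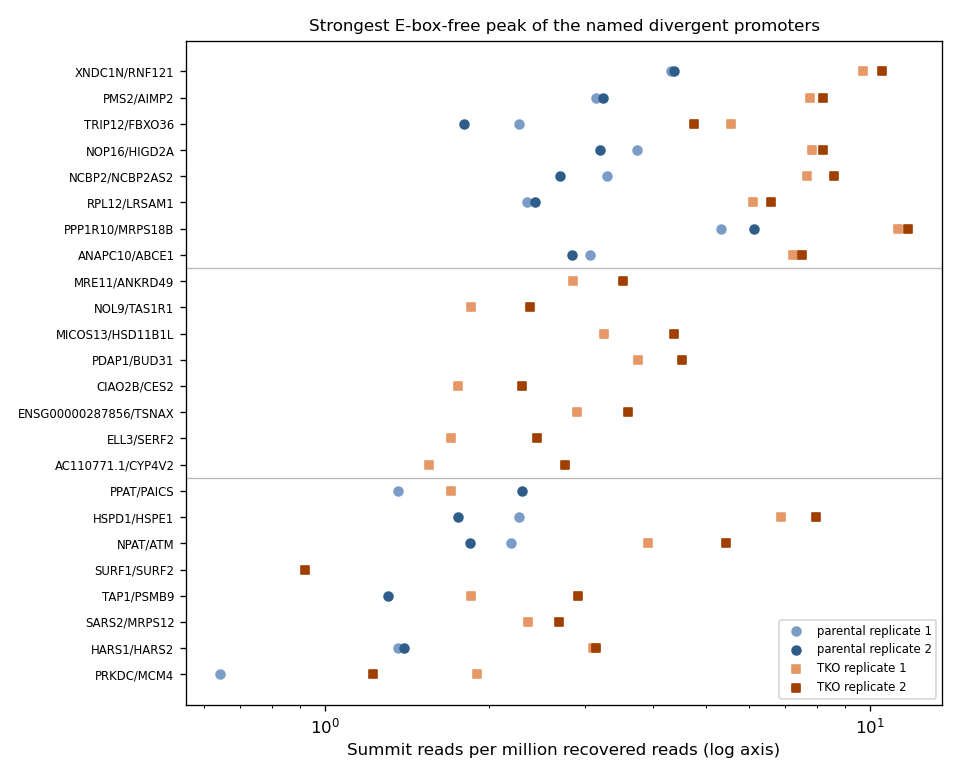
Reads at the summit of the strongest E-box-free peak, as RPM (log axis), in the 4 libraries. From top to bottom, separated by grey lines, are 8 promoters bound in all lists, 8 bound in the TKO lists only and the 8 textbook pairs with such a peak, and a missing point is a library with no E-box-free peak there.

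Bidirectional promoters known from textbooks were followed whatever they showed. HSPD1/HSPE1, the mitochondrial chaperonin pair, was bound in all lists, with 2.27 and 1.76 RPM in parental and 6.87 and 7.98 RPM in TKO libraries. Its ratio of means, 3.69, was the highest of the 3 textbook pairs bound in all 4 lists. NPAT/ATM, a histone gene activator beside a DNA damage kinase, had 2.19 and 1.85 RPM in parental and 3.91 and 5.45 RPM in TKO libraries. Its 4 summits lay between the start sites, 45 to 107 bp before ATM. HARS1/HARS2, the cytosolic and mitochondrial histidyl-tRNA synthetases, had 1.36 and 1.40 RPM in parental and 3.11 and 3.14 RPM in TKO libraries. In all 3 pairs both TKO values exceeded both parental values.

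Other textbook pairs were bound in some lists only. SARS2/MRPS12 (a mitochondrial seryl-tRNA synthetase and a mitochondrial ribosomal protein) had 2.36 and 2.68 RPM in the TKO lists and no parental peak. TAP1/PSMB9, 2 genes of antigen processing, had 1.31 RPM in parental replicate 2 and 1.85 and 2.91 RPM in TKO libraries. PRKDC/MCM4 (a DNA repair kinase and a subunit of the replicative helicase) had 0.643 RPM in parental replicate 1 and 1.91 and 1.23 RPM in TKO libraries, where the TKO replicate 2 summit was 144 bp inside PRKDC and the others lay between the start sites. SURF1/SURF2 had 0.920 RPM in TKO replicate 2 alone, at percentile 19.1 of its list. COL4A1/COL4A2, 2 chains of type IV collagen, had no peak of any kind in the 4 lists.

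PPAT/PAICS, which encodes enzymes of purine synthesis, was the only textbook pair that also had peaks with a canonical E-box. These were in parental replicate 1 and both TKO lists. Its E-box-free peaks had 1.36 and 2.30 RPM in parental libraries and 1.70 RPM in TKO replicate 1. The last of these, whose sequence is shown above, lay 1391 bp inside PAICS from the start site nearest to PPAT, within 1 kb of an alternative start site, so these 3 values are not from 1 place.

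Gene families at divergent promoters were compared by counts. The 14 families, of translation, mitochondria, DNA and RNA metabolism, proteasome, nucleotide synthesis, histones and zinc fingers, took in 288 of the 1236 promoters. Their counts stand against 77.7% of all divergent promoters bound in each TKO list. Cytosolic ribosomal protein genes stood highest among the larger families. Of 19 such promoters, 17 and 16 were bound in parental replicates 1 and 2 (89.5% and 84.2%, against 22.6% and 24.8% of all divergent promoters), and all 19 in both TKO lists. Of one-way ribosomal protein genes, 62 and 58 of 71 were bound in the parental and 64 in each TKO list. The strongest in the TKO lists were BTK/RPL36A (2.35 and 2.43 RPM in parental, 6.72 and 6.60 in TKO libraries), VPS52/RPS18 (4.62 and 3.61 against 9.88 and 11.9) and RPL18/SPHK2 (2.42 and 1.94 against 5.46 and 6.44). At all 3 the TKO values exceeded the parental ones.

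Ribosome biogenesis genes had 28 divergent promoters, of which 13 and 16 were bound in parental and 24 and 22 in TKO lists. Splicing factor genes had 23, of which 10 and 13 were bound in parental and all 23 in each TKO list. Aminoacyl-tRNA synthetase genes had 10, with 5 in each parental list and 9 and 10 in the TKO lists. YARS1/S100PBP, with the tyrosyl-tRNA synthetase, reached 9.53 and 11.8 RPM in TKO against 3.78 and 4.51 in parental libraries. RNA polymerase subunit genes had 15, with 6 in each parental and 11 in each TKO list (73.3%), where 94.7% and 89.5% of the one-way genes of this family were bound.

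Mitochondrial ribosomal protein genes had 27 divergent promoters. Of these, 13 and 8 were bound in parental replicates 1 and 2, and all 27 in both TKO lists, so that 13 were in both TKO lists and no parental list. MRPL27/EME1 had 1.70 and 2.21 RPM in parental and 5.41 and 5.68 in TKO libraries, and MRPL43/TWNK, which holds the mitochondrial replicative helicase, had 2.61 and 2.52 against 6.92 and 6.83. Genes of the respiratory chain and ATP synthase had 41, with 9 and 8 in the parental and 34 and 36 in the TKO lists. These parental shares, 22% and 19.5%, were close to those of all divergent promoters. NDUFS1/EEF1B2, a complex I subunit beside a translation elongation factor, had 1.29 and 1.71 RPM in parental and 4.51 and 4.99 in TKO libraries.

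DNA repair genes had 42 divergent promoters, with 10 and 11 bound in parental and 35 in each TKO list. DNA replication genes had 18, with 4 in each parental list and 16 and 13 in the TKO lists. Of these, MCM7/AP4M1, with a subunit of the replicative helicase, had 1.55 and 1.71 RPM in parental and 2.96 and 4.45 in TKO libraries. Its summits lay 1307 to 1401 bp inside MCM7 from the start site nearest to AP4M1, within 1 kb of an alternative start site only. Proteasome genes had 14, with 3 in each parental and 13 in each TKO list. Mitochondrial import and chaperonin genes had 9, with 3 and 5 in the parental and 7 and 8 in the TKO lists. Nucleotide and one-carbon synthesis had 3, with 2 in each parental list and 2 and 1 in the TKO lists, and GART/SON was the one named, at 1.29 and 1.53 RPM in parental and 3.76 and 3.07 in TKO libraries.

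Histone and zinc-finger genes were the lowest of the larger families in parental cells. Of 11 divergent promoters of replication-dependent histone genes, 2 were bound in each parental list and 8 and 7 in the TKO lists. H2AC15/H2BC15 had 1.36 and 1.58 RPM in parental and 1.5 and 2.07 RPM in TKO libraries, which overlapped. These were not reads at 1 place. The parental summits lay 888 and 825 bp downstream of the H2AC15 start site, outside annotated protein-coding transcripts. The TKO summits lay 409 and 385 bp inside H2BC15, in coding sequence. Histone genes have near-identical copies, so reads at them are uncertain. ZNF genes had 43, with 7 and 8 in the parental and 32 and 33 in the TKO lists, and ZNF142/BCS1L had 1.48 and 1.53 RPM in parental against 3.56 and 3.68 in TKO libraries. Families differed in how they stood to their one-way genes. Divergent shares were above the one-way shares in both TKO lists for ribosomal proteins of both kinds, aminoacyl-tRNA synthetases, respiratory chain, ribosome biogenesis, splicing, proteasome, histones and zinc fingers. They were below them in both TKO lists for RNA polymerases, DNA replication (88.9% and 72.2% against 92.6% and 85.2%), DNA repair (83.3% in each against 85.1%), mitochondrial import and chaperonins (77.8% and 88.9% against 81.8% and 95.5%) and nucleotide synthesis. In both parental lists divergent shares were above for cytosolic ribosomal proteins, respiratory chain, DNA replication, RNA polymerases and splicing. The same held for nucleotide synthesis, histones and zinc fingers. Proteasome genes and mitochondrial import and chaperonins were below in both, and the other families went neither way in both. None of these family differences was tested.

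Cutting the lists to equal length lowered the TKO counts of the 5 families given next. Cytosolic ribosomal protein promoters were then bound at 17 and 14 of 19 in parental and 17 and 18 in TKO lists, mitochondrial ones at 13 and 4 of 27 against 15 and 11, and those of the respiratory chain at 9 and 6 of 41 against 9 in each. DNA repair promoters were bound at 10 and 9 of 42 in parental and 15 and 13 in TKO lists. Histone promoters were bound at 2 of 11 in each parental list and at 0 in each TKO list. Families share genes across a pair, so a promoter can count in more than 1 of them.

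Divergent promoters were bound at every distance between the start sites. The median distance over the 1236 promoters was 136 bp (quartiles 73 and 269). For 178 promoters under 50 bp apart, 23% and 27.5% were bound in parental and 82.0% and 82.6% in TKO lists. For 118 promoters 500 to 1000 bp apart, the shares were 20.3% and 22.9%, and 70.3% and 72.0%. The intervals of these shares overlapped in the parental lists, 17.1 to 29.9% against 13.5 to 28.7% in replicate 1. They also overlapped in the TKO lists, 75.6 to 87.4% against 61.2 to 78.4% in replicate 1. In every list the share was lower at 500 to 1000 bp than under 50 bp, and this difference was not tested. Overlap of separate intervals does not show that the classes are alike.

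**Figure D3:**
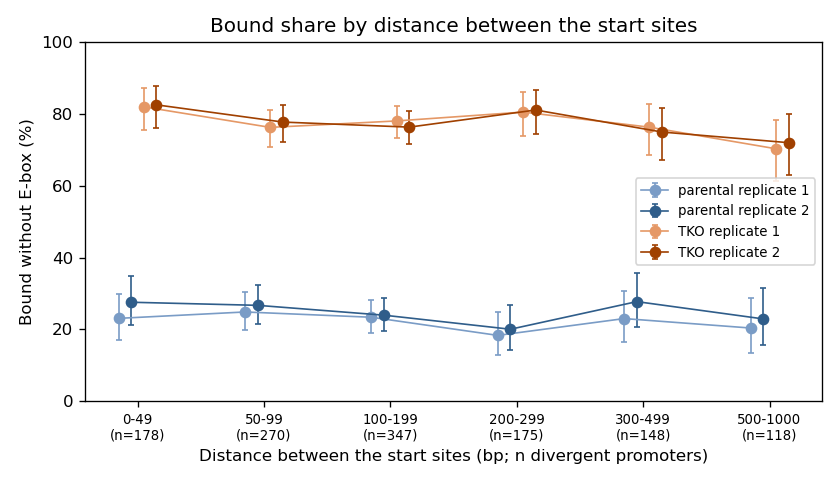
Share of divergent promoters with an E-box-free peak against the distance between the start sites (bp, 6 classes, with the number of promoters), per library with 95% Clopper-Pearson intervals. The parental libraries stayed between 18.3 and 27.7% and the TKO libraries between 70.3 and 82.6% over all classes.

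Summits of members lay near the start sites, but mostly not between them. Of members, 22.9% and 29.4% in parental replicates 1 and 2 and 18.5% and 18.8% in TKO replicates 1 and 2 had the summit between the nearest pair of start sites. The others lay past the start site of 1 of the 2 genes, split almost evenly between them. With the minus-strand gene first, there were 113 and 126 in parental replicate 1 and 112 and 123 in parental replicate 2. In TKO replicate 1 there were 528 and 541, and in TKO replicate 2 there were 529 and 518. The share between the start sites grew with their distance, in TKO replicate 1 from 7.41% under 50 bp to 47.3% at 500 to 1000 bp.

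The median distance of the summit from the midpoint of the start sites was 170 and 159 bp in the parental and 232 and 229 bp in the TKO libraries. Measured to the nearest TSS of any protein-coding gene, the median was 50 and 51 bp in parental and 87 and 81 bp in TKO libraries. For one-way peaks it was 101 and 104, and 191 and 187 bp. The members were closer by 51, 53, 104 and 106 bp, in all 4 libraries (exact sign-flip permutation p = 0.125, n = 4). A divergent promoter has more start sites near its summit than a one-way gene, and this was not adjusted for.

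**Figure D4:**
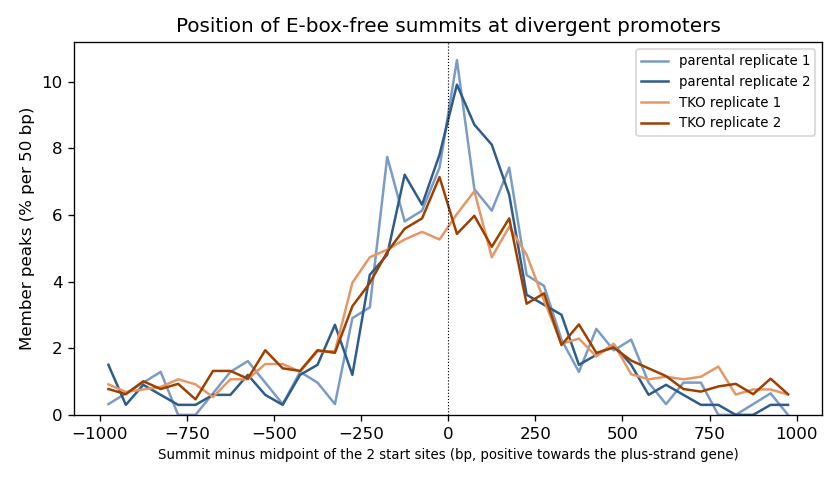
Distribution of member summits around the midpoint of the 2 start sites (percent of member peaks per 50 bp), with positive distances towards the plus-strand gene. All 4 libraries are centred on the midpoint with both sides filled alike, and 83.2 and 85.9% of parental and 76.0 and 75.3% of TKO members are within 500 bp.

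By annotation, 48.4% and 48.3% of member summits were in UTR exons in the parental and 40.4% and 41.3% in the TKO libraries. Introns held 24.5% and 17.4% in parental and 31.7% and 30.9% in TKO libraries, coding exons 8.71% to 13.5%, and the remaining 14.4% to 24.3% were intergenic. Among one-way peaks the UTR share was lower in each library, 27.6%, 26.1%, 22.4% and 23.3%. A divergent promoter by definition has an annotated gene on either side, and this was not adjusted for.

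Members were wider than one-way peaks, above all in 231:TKO cells. Their median width was 242 and 255 bp in parental and 460 and 477 bp in TKO replicates, against 226, 228, 370 and 391 bp for one-way peaks. The class difference was 15.5 and 27 bp in parental and 90 and 86 bp in TKO libraries, all in the same direction (exact sign-flip permutation p = 0.125, n = 4). A member peak covered both start sites in 27.4% and 27.6% of cases in parental and 41.0% and 42.9% in TKO libraries (exact permutation p = 0.333, n = 2 per line). With lists of equal length the shares were 27.4% and 34.5%, and 76.9% and 78.0%. Extension length was also longer in the TKO libraries, and its part in the cell-line difference was not tested. The difference between classes is within a library.

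Divergent promoters with several member peaks were counted next. There were 2 or more at 30 and 24 promoters in the parental lists and at 297 and 279 in the TKO lists. Among the strongest 3720 peaks of each list the order was the opposite, with 30 and 11 such promoters in parental and 5 in each TKO list. Of the TKO promoters in the full lists, 58.9% and 54.5% had a summit past the start site of each of the 2 genes.

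In strength, members stood above one-way peaks in both TKO libraries but not in both parental libraries. The median percentile of the authors' fold within a list was 45.6 (95% interval 42.1 to 51.4) and 50.5 (46.3 to 59.9) for members in parental replicates 1 and 2, against 51.6 and 50.4 for one-way peaks. In TKO replicates 1 and 2 it was 64.1 (60.3 to 66.2) and 63.8 (61.3 to 66.0), against 57.2 and 58.0. The class differences were −5.98, 0.114, 6.95 and 5.83 percentiles, which did not go one way (exact sign-flip permutation p = 0.625, n = 4). They were higher in TKO than in parental libraries by 9.32 percentiles on average (exact permutation p = 0.333, n = 2 per line). Peaks above percentile 90 made up 18.9% and 16.8% of members and 12.9% and 12.7% of one-way peaks in the TKO libraries, differences of 6.06 points (3.92 to 8.37) and 4.07 points (2.01 to 6.30). In the parental libraries the same differences were −0.311 points (−3.41 to 3.60) and 1.27 points (−2.11 to 5.37).

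Reads at the summit were compared where all lists had a member, at 204 divergent promoters and 859 one-way genes with recovered reads. Promoters absent from a list do not enter, so this is not a value over all members. The median summit RPM at divergent promoters was 1.44 and 1.46 in parental replicates and 3.51 and 3.76 in TKO replicates. The TKO to parental ratio had a median of 2.38 to 2.64 over the 4 combinations of libraries, and 203 or all of the 204 promoters were higher in TKO. One-way genes had median ratios of 2.35 to 2.74. The class difference, divergent minus one-way, was −0.0225 and differed in sign among the combinations (0.0393, 0.0356, −0.107 and −0.0581).

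Over the 204 promoters the ratio of mean RPM ranged from 1.22 at H2AC15/H2BC15 to 6.78 at DDX31/GTF3C4 (quartiles 2.26 and 2.79). DDX31/GTF3C4, a nucleolar helicase beside a subunit of a polymerase III transcription factor, had 0.870 and 0.766 RPM in parental and 4.81 and 6.29 RPM in TKO libraries. Its parental summits lay 167 and 354 bp inside GTF3C4 and its TKO summits 169 and 166 bp inside DDX31, and the parental lists alone also held a peak with a canonical E-box there. These 2 promoters were singled out after their values were seen. In a count also chosen after the values were seen, all 4 summits lay within 100 bp of each other at 115 of the 204 promoters (56.4%). At these the ratio ranged from 1.59 to 4.6 with a median of 2.49, and at the other 89 its median was also 2.49, so both extremes above came from promoters whose strongest peak lay at another place in the other cell line. The mean extension length was 1.32 times as long in TKO as in parental libraries, and its part in these ratios was not tested.

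The canonical E-box was compared between all peaks of both promoter classes. Of peaks at divergent promoters, 20.3% and 16.8% in parental and 7.22% and 7.20% in TKO libraries had CACGTG within 50 bp of the summit. Of one-way peaks the shares were 22.6%, 18.8%, 8.30% and 7.28%. The divergent share was lower in all 4 libraries, at −2.31, −2.09, −1.08 and −0.0802 points (exact sign-flip permutation p = 0.125, n = 4), and each counting interval of the difference included 0. Of member peaks, 10.3% and 9.61% in parental and 4.04% and 3.96% in TKO libraries had an E-box just outside the limit, with its letters reaching within 100 bp of the summit. Anywhere in the peak, 11.9% to 15.0% of members held one. Few bound divergent promoters had both kinds of peak, 16 and 13 in parental and 42 and 35 in TKO lists.

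Many members held a non-canonical one. One of the 4 variant hexamers was within 50 bp of the summit in 33.2% and 28.5% of members in parental replicates 1 and 2 and in 20.4% and 19.6% in TKO replicates 1 and 2. In windows 1 kb to either side the shares were 7.10%, 7.96%, 7.86% and 7.76%, and 17.9% of all divergent midpoints and 13.1% of one-way start sites held one in a window of the same length. Members with such a hexamer had a higher median fold in every library, 5.57 against 5.19 and 5.99 against 5.10 in parental, and 7.20 against 5.91 and 7.36 against 6.30 in TKO libraries. CACGCG was the most frequent of the 4, in 16.1% and 14.4% of parental and 8.92% and 8.92% of TKO members.

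The divergent and the one-way class did not differ steadily in this motif. The differences were −2.79, −5.65, −0.922 and 0.485 points (exact sign-flip permutation p = 0.25, n = 4). Its share among members was lower in TKO than in parental libraries by 10.9 points on average (exact permutation p = 0.333, n = 2 per line).

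Of 10 other letter sets, ETS (CCGGAAGT), YY1 (AAGATGGC) and ZNF143 (ACTACAA) were more frequent at members than at one-way peaks in all 4 libraries. ETS factors and YY1 are regulators of many housekeeping promoters. ETS letters were at 5.81% and 5.11% of members in parental and 3.89% and 4.65% in TKO libraries, against 4.41%, 4.82%, 2.02% and 2.19% of one-way peaks. The difference excluded 0 in the TKO libraries only, at 1.87 (0.9 to 3.1) and 2.47 points (1.40 to 3.79). In the parental libraries it was 1.40 (−1.02 to 4.72) and 0.286 points (−1.94 to 3.35). In the flanks of members they were at 0.150% to 0.388%, and over all divergent midpoints at 8.01%, against 3.32% of one-way start sites.

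YY1 letters were at 2.58% and 4.20% of members in parental and 2.67% and 2.64% in TKO libraries, against 2.31%, 2.41%, 1.29% and 1.44% of one-way peaks. The difference excluded 0 in the TKO libraries, at 1.38 (0.600 to 2.42) and 1.2 points (0.411 to 2.25), but not in the parental ones. Here the background went the other way, with 1.05% of divergent midpoints against 2.72% of one-way start sites. ZNF143 letters were at 1.47% to 2.1% of members and 0.968% to 1.35% of their flanks, and at 3.07% of divergent midpoints against 0.537% of one-way start sites. They differed from one-way peaks by 0.354 to 0.713 points, the interval excluded 0 in TKO replicate 1 only, and the mean of 0.503 points was 0.119 with lists of equal length and 0.150 at a −log10 q of at least 5. For each of the 3 the exact sign-flip permutation test over 4 libraries gave p = 0.125, before any adjustment over the 11 sets.

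AP-1 letters (TGANTCA) and NRF1 letters (GCGCATGC) were less frequent at members in all 4 libraries, with differences of −0.586 to −3.1 and of −0.0908 to −1.11 points. The GC box (GGGCGG) was at 22.4% to 26.7% of members and 6.76% to 9.19% of their flanks. All divergent midpoints held it more often than members, at 43.8%, and one-way start sites held it at 34.8%. Between members and one-way peaks it showed no steady class difference (−0.9 to 2.76 points). The CCAAT box of NF-Y showed none either, and the same was true of the CREB site (TGACGTCA). Letters of E2F sites (TTTNGCGC) also showed no steady difference. Nor did the TATA box, searched with the letters TATAAA on both strands. It was at 0.698% to 1.29% of members, below the 5.72% to 6.61% in their flanks. None of the 11 sets was present at 39.7% and 41.7% of parental and 49.2% and 50.3% of TKO members.

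**Figure D5:**
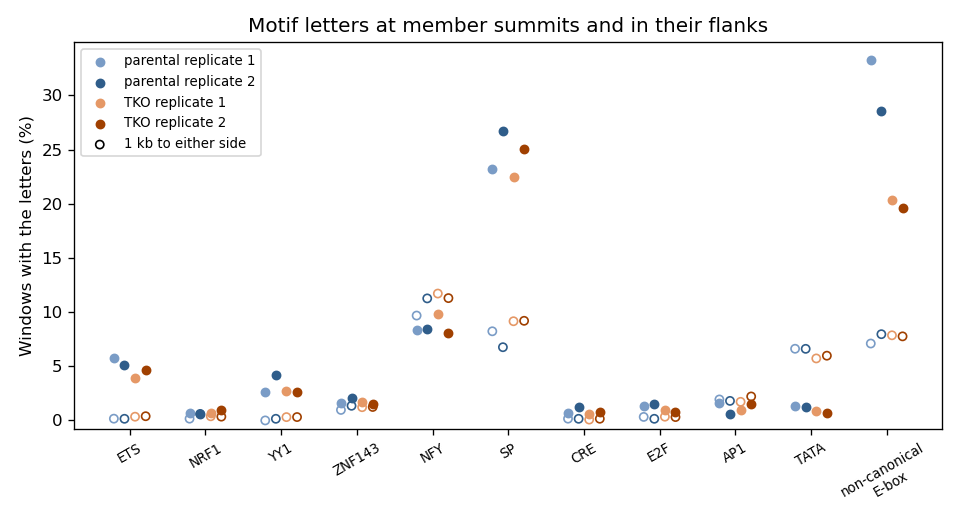
Share of 101-bp windows with the letters of each motif set, at member summits (filled) and 1 kb to either side (open), in the 4 libraries. The non-canonical E-box, at 19.6 to 33.2% against 7.10 to 7.96% in the flanks, and the SP set (GC box) stand farthest above their flanks. The SP set was more frequent still at all divergent midpoints, 43.8%, which are not drawn.

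Base composition was compared last. Median GC content within 100 bp of the summit was 62.7% and 62.7% at members in parental and 63.2% and 63.7% in TKO libraries, with differences from one-way peaks of −0.498 to −1.99 points. The ratio of observed to expected CpG was higher at members in all 4 libraries, 0.867 against 0.855 and 0.852 against 0.828 in parental, and 0.817 against 0.773 and 0.817 against 0.770 in TKO libraries (exact sign-flip permutation p = 0.125, n = 4).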

How the data were processed

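The authors aligned single-end 50-cycle reads to hg19 with Novoalign 3.08.02 and called peaks per library with MACS2 2.1.1.20160309 against input. The deposited lists give, per peak, a fold enrichment (ratio of summit pileup to local background), −log10 p- and q-values, a score derived from the −log10 q-value, and a summit. No peak ended beyond its GRCh37 sequence, so GRCh37 with GENCODE v44 lifted to it was used. The 11 mitochondrial peaks were left out. Depth is not in the lists. Whole summit reads were solved from fold and p (tolerance 0.002 on the −log10 scale) for 99.7 to 100% of peaks. Depth was then inferred from the lowest background of a list, its extension length and an assumed genome size of 2.7 Gb. The extension length was taken as the shortest peak width of the list, so depth and RPM rest on it.

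Motifs were searched on both strands, as exact letters, within 50 bp of the summit. A promoter was represented in a list by its E-box-free peak of highest fold, except in the comparison of summit reads between the classes. There the highest summit RPM among its E-box-free peaks was taken. For TKO against parental libraries an exact permutation test was used, and for promoter classes an exact sign-flip permutation test over the 4 libraries, both two-sided. The study describes the libraries of each cell line as biological replicates. The GEO labels do not say whether they came from separate cultures, and p-values measure the spread between these libraries. Intervals are at 95%, Clopper-Pearson for shares, Newcombe for differences of shares and order statistics for medians. The members and the gene lists were chosen with earlier results of these data known. Named promoters were the 8 of highest mean fold percentile in all 4 lists, the 8 highest in both TKO lists with no parental peak, those in both parental lists only, 10 textbook pairs, of which 1 is not reported here, and up to 3 per family. Alternatives were stricter q-values, equal list lengths, other windows, gaps and transcripts, GC and fold strata, and leaving out each library. The steps were tested on simulated data. Python 3.11.15, numpy 2.4.6, pandas 2.3.3, scipy 1.17.1, pysam 0.24.0, samtools 1.23.1 and matplotlib 3.10.9 were used.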

Additional observations from a re-analysis of the deposited data

Results flagged for a closer look

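CCAAT letters (NF-Y) were less frequent at members than at one-way peaks in both parental libraries, by 0.704 and 1.10 points, and more frequent in both TKO libraries, by 1.86 and 0.123 points. The class difference was thus higher by 1.90 points in TKO than in parental libraries, and the exact permutation test of that difference gave p = 0.333 (n = 2 per line), the smallest it allows. The result is listed because every library of one line lay on one side of 0 and every library of the other line on the opposite side.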

How the results depend on the processing

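Of 273 values under alternatives, 18 changed sign, all in differences smaller than the spread between libraries. These were 4 of 12 for the summit read ratio of divergent promoters minus one-way genes (−0.0225, range −0.0858 to 0.125, and 0.0173 with isolated one-way promoters), 6 of 12 for NF-Y letters (range −0.589 to 0.479), 3 of 12 for the GC box (−0.171 to 2.19), 3 for TATA and 2 for CREB letters. ZNF143 letters (0.503 points) were 0.150 at a −log10 q of at least 5, 0.119 with equal list lengths, 0.270 against isolated one-way promoters and 0.658 for pairs at most 500 bp apart. Of the 273, 229 stayed within the spread between libraries and 44 moved beyond it. For ratios this spread was the SD over the 4 combinations of libraries, which share libraries. For the share of promoters in both TKO lists that were also bound in both parental lists, the counting interval stood in for it. Peaks with a −log10 q of at least 5 gave a ratio of 4.33 for members and 3.66 for bound promoters, a bound-share difference of 24.7 points, a width difference of 64.1 bp and a TSS-distance difference of −71.6 bp. Lists of equal length gave 1.18, 1.26, 14.8 points, 77 bp and −52 bp, a share difference of −1.19 points and an E-box difference of −2.86 points. A TSS window of 500 bp gave 3.74 for members, 26.7 points, 63.2 bp and −48.4 bp. An E-box window of 100 bp gave 4.31, 24.7 points, −2.10 points for the E-box and −74.8 bp. Pairs at most 500 bp apart gave 62.1 bp and −82.2 bp. Isolated one-way promoters gave 30.1 points, −2.21 points for the E-box, 62.4 bp and −74.1 bp. Canonical transcripts gave 3.77, 3.09, −5.30 points for the share, 29.5 points and −90.2 bp. GC strata gave 21.2 points and −84.9 bp, and fold strata −2.00 points for the E-box and −75 bp. Patterns over lists and families with equal list lengths were added after seeing the data. With 1 point per promoter, also added then, the bound-share difference was 26.6 points. The causes were not tested. The replicate numbers mark no known pairing (correlation of same-numbered deviations 0.0415 over 204 promoters), and with them as a replicate block the member ratio was 4.05. Without one library each, the difference in summit read ratio ranged from −0.0858 to 0.125, and the highest came without parental replicate 1. The other such ranges were 3.90 to 4.19 for members, 3.13 to 3.44 for bound promoters and 25.3 to 26.1 points for the bound share.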
